A study of Mus musculus with 12 samples.

Results

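Myc, Mycn, Mycl, Max, Mga, Mnt, Lin28a and Lin28b are growth regulators of the early embryo, and they were chosen by name: a transcript of the deposited table was taken where its identifier maps, in the GENCODE annotation of mouse GRCm38, to 1 of these 8 symbols. All 8 had a row among the 22467 transcripts of the table, and all 8 were among the 12576 transcripts tested, those with more than 0.75 CPM (counts relative to the normalized depth of the library) in at least 3 libraries of ribosome-protected fragments (RPFs). The data came from 6 whole mouse embryos at E8.5, 3 wild-type (Rpl10a +/+) and 3 Rpl10a LOF/LOF. Each embryo gave an RPF library, whose reads count ribosomes on coding sequences (CDS), and an RNA-seq library of the same lysate depleted of rRNA. The LOF allele is a whole-body, germline loss-of-function allele of the ribosomal protein gene Rpl10a. It adds an N-terminal extension to the protein and is not a null. The line was kept on C57BL/6, and per the study's methods the embryos were not sexed. The question was whether the ribosome occupancy of these mRNAs, or their abundance, differed between the genotypes, and how the related genes compared with each other.

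MYC, MYCN and MYCL are transcription factors that dimerise with MAX and bind the E-box CACGTG in promoters of genes for ribosome production, nucleotide synthesis and the cell cycle. MNT competes for MAX and represses such genes, and MGA, which also carries a T-box, joins MAX to the repressive complex PRC1.6. LIN28A and LIN28B are RNA-binding proteins that hold back the let-7 microRNAs. They bind the loop of the let-7 hairpin, often at a GGAG motif, and LIN28A recruits terminal uridylyl transferases that mark the hairpin for decay. Let-7 in turn represses mRNAs with sites in their 3'UTRs, among them those of Lin28 itself, so the genes form a loop of mutual repression that keeps early embryonic tissue in growth.

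The sequences on which this loop rests are shown here because the results below refer back to them. The 9 mature members of the mouse let-7 family held by the RefSeq table share the seed GAGGUAG at bases 2 to 8, in capitals in 3 of them:
mmu-let-7a-5p: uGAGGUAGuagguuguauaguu
mmu-let-7g-5p: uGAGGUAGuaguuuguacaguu
mmu-miR-98-5p: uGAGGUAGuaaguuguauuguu

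Of 11 let-7 hairpins with both arms in the RefSeq table (GRCm38.p6), 8 had GGAG between the arms, where LIN28 binds. Capitals mark GGAG in the loops of Mirlet7c-1 (chromosome 16) and Mirlet7e (chromosome 17), and the loop of Mirlet7c-2 (chromosome 15) held none:
Mirlet7c-1 loop: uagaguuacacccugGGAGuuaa
Mirlet7e loop: gaggaagacacccgaGGAGauca
Mirlet7c-2 loop: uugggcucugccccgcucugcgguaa

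The complement of the seed, CTACCTC, occurred 2 times in the 3'UTR of Lin28a and 4 times in that of Lin28b, and in none of the other 6 genes (the annotated Myc transcript has no UTR to search). It was searched on the transcript strand only, and 9.79% of the 12430 tested transcripts with a 3'UTR held it. The windows below are from GENCODE transcripts of GRCm38, with the match in capitals. They start, for the match itself, at base 909 and base 1547 of the 2775-nt 3'UTR of Lin28a and at bases 36 and 2410 of the 4445-nt 3'UTR of Lin28b:
Lin28a site 1: gcacagcctgttgaaCTACCTCat
Lin28a site 2: gagatcgccacaaacCTACCTCac
Lin28b site 1: acccgggcgggaagtCTACCTCat
Lin28b site 2: tatacttgttagtaaCTACCTCtg

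On the MYC side, CACGTG stood in the RefSeq promoters (250 bases before to 50 after the start site) of 11.9% of 9873 tested genes, in 3 of the 7 members that had a promoter in the table, and in 7 of 23 genes of the list of MYC targets used below. The motif is its own reverse complement, so 1 search covers both strands. The 3 members were Max (chr12:76962234-76962263, minus strand), Mnt (chr11:74830789-74830818, plus strand) and Lin28b (chr10:45470233-45470262, minus strand), on GRCm38.p6, with the E-box in capitals:
Max promoter: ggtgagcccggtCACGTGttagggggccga
Mnt promoter: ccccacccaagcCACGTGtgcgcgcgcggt
Lin28b promoter: aattgacagagtCACGTGtgctcaggggcc

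RPF libraries held 7041357 to 10863499 counts and RNA libraries 9132521 to 26561843. Rpl10a itself was lower in every Rpl10a LOF/LOF embryo than in every wild-type embryo, with 1035 ± 92.8 CPM (SD, n = 3) against 1617 ± 58.8 CPM (SD, n = 3) in RPF, a log2 fold change of -0.64 (edgeR, FDR = 0.0069). The embryos did not differ in genotype alone. Summed Y-linked counts were 154 to 183 RPF CPM in 4 embryos, the wild-type ones and Rpl10a LOF/LOF embryo 2, but 9.09 and 0.384 in Rpl10a LOF/LOF embryos 1 and 3. Xist, the RNA of the inactive X chromosome of females, ran the other way, with 227 and 173 RNA CPM in these 2 embryos and 4.89 to 8.57 in the other 4, so X- and Y-linked expression was not balanced between the genotypes. Markers of every embryonic layer looked for had counts. Those of visceral endoderm, 10 of 10 with counts, summed to 6536 to 8610 RPF CPM in wild-type and 2365 to 4959 in Rpl10a LOF/LOF embryos, primitive erythroid markers (8 of 8) to 838 to 2820 against 3463 to 5818, cardiac markers (6 of 6) to 1531 to 1700 against 2041 to 2394, and markers of paraxial mesoderm and tail bud (8 of 8) to 164 to 184 against 131 to 149. Neural and endothelial sums overlapped, as did decidua and trophoblast at 80.6 to 317 CPM, most of it Prl8a2. Of the paraxial mesoderm and tail bud markers, Tbx6, Msgn1, Dll1 and Wnt3a were apart in RPF, while T, Meox1, Tcf15 and Fgf8 overlapped. The part of sex and of tissue composition in the results below was not tested except where a value is given, and in whole embryos fewer cells of a type and less RNA per cell cannot be told apart.

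Levels were compared between genes per length: RPF CPM per kb of the counted CDS, RNA CPM per kb of the transcript, and the ratio of these (RPF/RNA) in units of its median over 12570 transcripts in the same embryo. Lin28a stood far above the other 7 genes. Its RPF level was 469 ± 39.2 CPM per kb (SD, n = 6 embryos of both genotypes), at the 97.2nd percentile of transcripts, and its RNA level was 362 ± 22.4 CPM per kb, at the 99.0th. In RPF it was followed by Mycn at 109 ± 3.95, Max at 86.9 ± 7.57, Myc at 61.9 ± 5.73, Lin28b at 36.3 ± 4.17, Mga at 22.5 ± 1.75, Mycl at 11.7 ± 1.44 and Mnt at 6.25 ± 0.55 CPM per kb. No 2 neighbours in this order overlapped over the 6 embryos, so the RPF order was the same in each embryo.

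The order of RNA levels was another. After Lin28a came Mycn at 76.5 ± 1.42, Lin28b at 63.95 ± 4.47, Max at 32.0 ± 1.39, Myc at 25.7 ± 3.49, Mga at 20.6 ± 1.57, Mycl at 19.7 ± 2.02 and Mnt at 4.82 ± 0.43 CPM per kb of transcript (SD, n = 6). The ranges of Max and Myc, of Myc and Mga, and of Mga and Mycl overlapped, with Max above Myc in 5 of 6 embryos, Myc above Mga in 5 of 6 and Mga above Mycl in 4 of 6. Lin28b thus ranked above Max and Myc in RNA and below them in RPF.

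**Figure D1:**
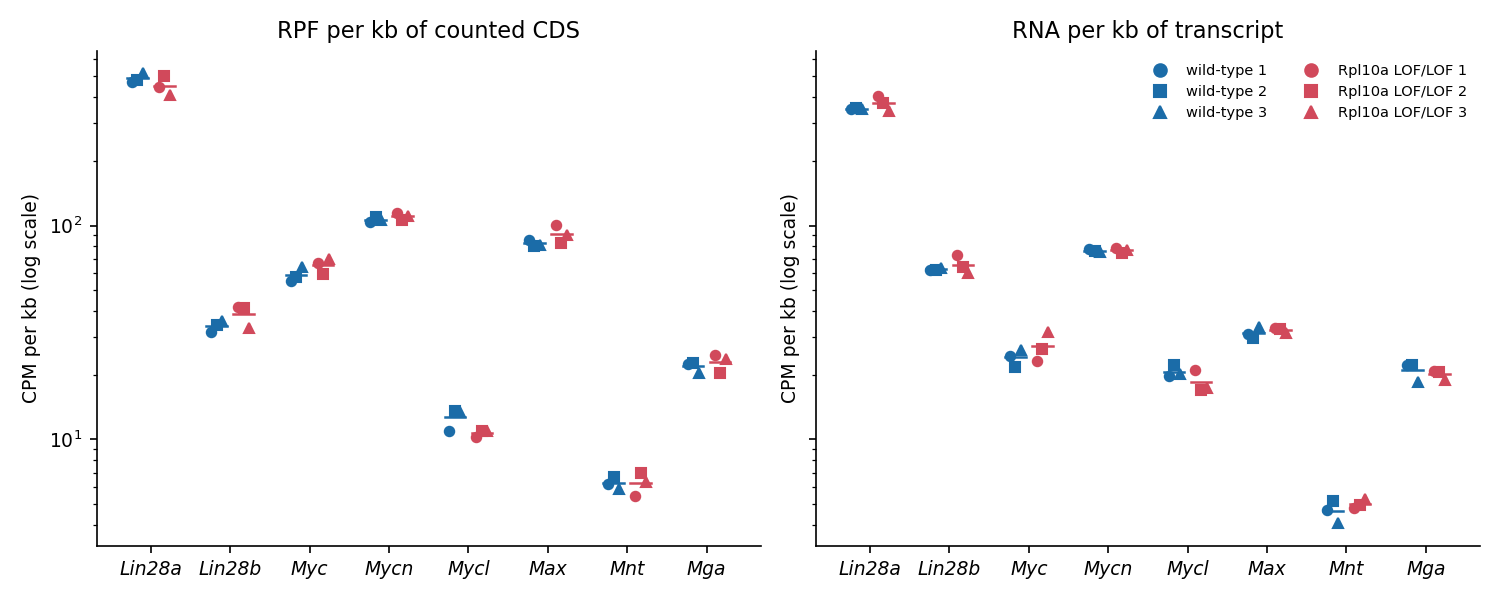
RPF per kb of counted CDS (left) and RNA per kb of transcript (right), both in CPM per kb on a log axis, for the 8 genes. Each point is an embryo (3 wild-type in blue, 3 Rpl10a LOF/LOF in red, shapes for the replicate number) and bars are means of 3. Lin28a is highest in both panels, and Lin28b falls from the third place in RNA to the fifth in RPF.

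Accordingly RPF/RNA split the genes. Max, the shared partner, had 1.61 ± 0.12 times the median (SD, n = 6) and Myc 1.44 ± 0.15. Mycn at 0.84 ± 0.02, Mnt at 0.77 ± 0.08, Lin28a at 0.77 ± 0.08 and Mga at 0.65 ± 0.06 lay somewhat below the median. Mycl at 0.36 ± 0.04 and Lin28b at 0.34 ± 0.03 were the lowest, near the 10.7th and 9.76th percentiles. Embryos of neighbouring genes overlapped within each of these 3 groups, and no embryo overlapped between the groups.

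**Figure D2:**
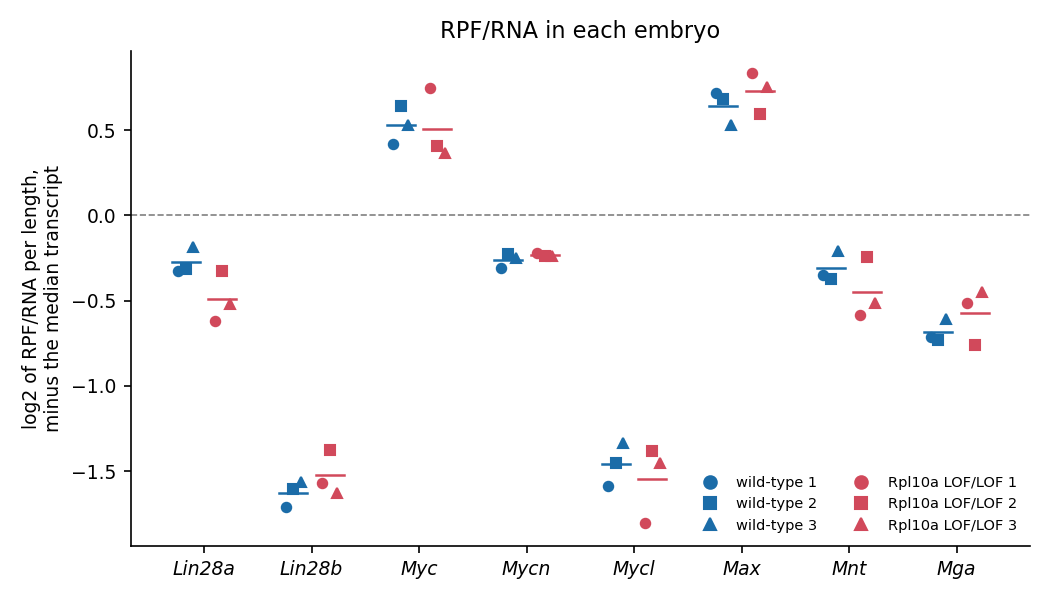
RPF/RNA per length of the 8 genes in each embryo, as log2 minus the log2 of the median transcript of that embryo (dashed line at 0), with bars at the means of 3 embryos. Max and Myc lie above the line in all 6 embryos, and Mycl and Lin28b lie more than 1 below it.

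The MYC paralogues were compared within each embryo, where scaling between libraries drops out, by a two-sided exact sign-flip permutation test over 6 embryos (smallest possible p = 0.03125, adjusted p = 0.0341 over 12 comparisons), and a difference passed at an adjusted p under 0.05. Mycn, known for its role in progenitor cells of the early embryo, exceeded Myc 3.0-fold in RNA per kb, a log2 difference of 1.58 ± 0.20 (SD, n = 6, adjusted exact p = 0.0341). In RPF per kb the difference was 1.76-fold, 0.82 ± 0.10 on the log2 scale (adjusted exact p = 0.0341), and in RPF/RNA Mycn minus Myc was -0.77 ± 0.14 (adjusted exact p = 0.0341). Mycn was the higher of the 2 in RPF and RNA in 6 of 6 embryos. Where counts were not divided by length, these log2 differences were 2.55 in RNA, 0.84 in RPF and -1.71 in RPF/RNA, so the sizes in RNA and RPF/RNA depend on the annotated lengths.

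Mycl, the third paralogue, was near Myc in RNA and far below it in RPF. The log2 difference was -0.38 ± 0.33 in RNA per kb (SD, n = 6, adjusted exact p = 0.0625, lower in 5 of 6 embryos), and it turned to 0.89 where counts were not divided by length. In RPF per kb Mycl was 5.30-fold below Myc and in RPF/RNA 4.06-fold below it (each lower in 6 of 6 embryos, adjusted exact p = 0.0341), and in RPF/RNA the log2 difference was -2.02 with and -3.61 without division by length. Against Mycn, Mycl was 9.33-fold lower in RPF, 3.91-fold lower in RNA and 2.39-fold lower in RPF/RNA (each in 6 of 6 embryos, adjusted exact p = 0.0341). As log2 differences, Mycn minus Mycl was 3.22, 1.97 and 1.25 with division by length and 3.565, 1.67 and 1.90 without it. The 5'UTR of the Mycl transcript (216 nt) has a GC content of 79.6% and holds 1 ATG, against 63.4% and 1 ATG in the 372-nt 5'UTR of Mycn.

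The counted Myc transcript needs a caution. It spans chr15:61985922-61989908 on the plus strand of GRCm38 in 3 exons, and GENCODE vM21, which holds the deposited identifier with the same version, annotates it as a CDS of 1365 nt with no UTR. On that model its RNA reads came from the CDS alone while those of Mycn (2674 nt) and Mycl (3293 nt) came from CDS and UTRs. The authors counted on an earlier GENCODE release, not used here, and the per kb and RPF/RNA values of Myc depend on the model. The CDS opens with CTG, the known upstream start of the longer MYC protein, 15 codons before the first ATG in frame. Those are the 15 codons left out of RPF counting at every CDS start. Ribosomes that began at CTG and were still before the ATG were thus not counted. Counting in Myc began at this ATG, whereas in a CDS that opens with ATG the first 15 codons from it were left out. Whether ribosomes near the ATG raised RPF and RPF/RNA of Myc was not tested. The other members lie, on GRCm38, at chr12:12936093-12941914 (Mycn), chr4:122995944-123002485 (Mycl), chr12:76937269-76962185 (Max), chr2:119897228-119969581 (Mga), chr11:74830920-74845725 (Mnt), chr4:134003330-134018841 (Lin28a) and chr10:45376620-45470201 (Lin28b).

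The LIN28 paralogues differed in RPF, RNA and RPF/RNA. Lin28a exceeded Lin28b 12.95-fold in RPF per kb and 5.66-fold in RNA per kb, where Lin28b minus Lin28a was -3.695 ± 0.18 and -2.50 ± 0.03 on the log2 scale (SD, n = 6). RPF/RNA of Lin28a was 2.29-fold that of Lin28b. Without division by length, Lin28b minus Lin28a was -3.29 in RPF, -1.88 in RNA and -1.41 in RPF/RNA. Each difference had 1 sign in 6 of 6 embryos (adjusted exact p = 0.0341), and in all 11 of the 12 comparisons of paralogues passed at an adjusted exact p under 0.05. The Lin28b transcript has 3 ATGs in its 141-nt 5'UTR (GC content 45.4%) and a 3'UTR of 4445 nt, while the 100-nt 5'UTR of Lin28a (71% GC) has none.

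Between genotypes, none of the 8 genes was called in RPF, in RNA or in RPF/RNA at FDR < 0.1 by edgeR's quasi-likelihood test, and none had an unadjusted p under 0.05 in any of the 3. Over all tested transcripts 2.19% were called in RPF, 5.02% in RNA and 0.0% in RPF/RNA. In RPF/RNA 559 had an unadjusted p under 0.05 in edgeR's test, and DESeq2 and limma-voom also called 0. That edgeR test did not pair the RPF and RNA libraries of an embryo. With the embryo as a block 873 had an unadjusted p under 0.05, and again 0 were called. These counts varied with single embryos: 276 transcripts were called in RPF, but 4 without wild-type embryo 2, 12 without wild-type embryo 1, 151 without wild-type embryo 3, 40 without Rpl10a LOF/LOF embryo 3, and 1449 without Rpl10a LOF/LOF embryo 2. In RNA 631 were called, 138 without wild-type embryo 1 and 336 without Rpl10a LOF/LOF embryo 3, and in RPF/RNA 0, and 26 without Rpl10a LOF/LOF embryo 2. With the Y-linked counts as a covariate 22 were called in RPF and 35 in RNA. Over the 8 genes the 95% intervals of the fold changes in this fit, not adjusted for the number of genes, lay between 0.695-fold and 1.35-fold in RPF, 0.786-fold and 1.34-fold in RNA, and 0.731-fold and 1.31-fold in RPF/RNA. Some alternatives gave wider intervals: on the log2 scale Mycl in RPF reached -0.65 without wild-type embryo 1, and Lin28b in RPF reached 0.64 with the Y-linked counts as a covariate. A p that misses the threshold does not show that the genotypes were equal.

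Myc had 71.9, 74.7 and 83.1 RPF CPM in the wild-type embryos and 86.7, 77.2 and 91.2 in the Rpl10a LOF/LOF embryos, in the order of replicate number. The groups overlapped through Rpl10a LOF/LOF embryo 2, and the log2 fold change was 0.15 (95% interval -0.04 to 0.35, edgeR FDR = 0.48). Its RNA had 33.5, 29.7 and 35.9 CPM in wild-type and 31.8, 36.3 and 43.4 CPM in Rpl10a LOF/LOF embryos. This log2 fold change was 0.16 (-0.10 to 0.42, FDR = 0.55), and that of RPF/RNA was -0.00 (-0.32 to 0.32). With the Y-linked counts as a covariate they were 0.01 in RPF and 0.08 in RNA, and without 1 embryo in turn they ran in RPF from 0.10 (without Rpl10a LOF/LOF embryo 3) to 0.22 (without Rpl10a LOF/LOF embryo 2, 0.04 to 0.39, edgeR FDR = 0.13) and in RNA from 0.05 (without Rpl10a LOF/LOF embryo 3) to 0.26 (without Rpl10a LOF/LOF embryo 1, 0.02 to 0.50, edgeR FDR = 0.27).

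Mycn was the steadiest of the 8. Its RPF level was 138.7, 145.4 and 141.0 CPM in wild-type and 152.7, 140.9 and 147.6 CPM in Rpl10a LOF/LOF embryos. Its RNA level was 206.7, 203.8 and 201.6 against 210.5, 199.8 and 204.8 CPM. The log2 fold changes were 0.05 (-0.09 to 0.20) in RPF and 0.01 (-0.09 to 0.10) in RNA, the narrowest intervals of the 8 genes, and without 1 embryo in turn they stayed between 0.02 and 0.08 in RPF and between -0.02 and 0.03 in RNA.

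Mycl had the lowest fold changes in RPF and RNA. It had 11.5, 14.3 and 14.1 RPF CPM in wild-type and 10.8, 11.5 and 11.4 in Rpl10a LOF/LOF embryos. The lowest wild-type value, in embryo 1, and the highest mutant value, in embryo 2, were both 11.52 CPM. The groups thus only just met and were counted as overlapping. The log2 fold change was -0.23 (-0.53 to 0.06, edgeR FDR = 0.48) in RPF and -0.16 (-0.35 to 0.03, FDR = 0.39) in RNA. Without 1 embryo in turn the RPF value ran from -0.33 (without wild-type embryo 1, -0.65 to -0.01, edgeR FDR = 0.57) to -0.18, and the RNA value from -0.27 to -0.09 (without Rpl10a LOF/LOF embryo 2). Mycl RNA was called lower only in the fit without Rpl10a LOF/LOF embryo 1, at a log2 fold change of -0.27 (FDR = 0.0963), and no other fit called any of the 8 genes in RPF, RNA or RPF/RNA.

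Max, the obligate partner, had 34.1 to 36.4 RPF CPM in wild-type and 35.1 to 42.4 in Rpl10a LOF/LOF embryos, a log2 fold change of 0.14 (-0.07 to 0.35). This was 0.07 without Rpl10a LOF/LOF embryo 1, 0.20 without Rpl10a LOF/LOF embryo 2 (edgeR FDR = 0.21) and 0.06 with the Y-linked covariate. Its repressive partner Mnt had the fewest counts, 64 to 116 RPF counts in a library, and the widest interval in RPF, 0.01 (-0.30 to 0.31). Mga had 185.7 to 206.1 RPF CPM in wild-type and 185.5 to 225.5 in Rpl10a LOF/LOF embryos, a log2 fold change of 0.07 (-0.11 to 0.25), which was 0.00 without Rpl10a LOF/LOF embryo 1, 0.14 without Rpl10a LOF/LOF embryo 2 and -0.06 with the Y-linked covariate. In RNA the log2 fold changes of these 3 genes were 0.05, 0.10 and -0.06 in the order Max, Mnt and Mga, and the genotypes overlapped for each. Without wild-type embryo 3 they were 0.09, 0.01 and -0.14, and without wild-type embryo 2 they were 0.01, 0.21 and -0.01, with no FDR under 0.1.

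**Figure D3:**
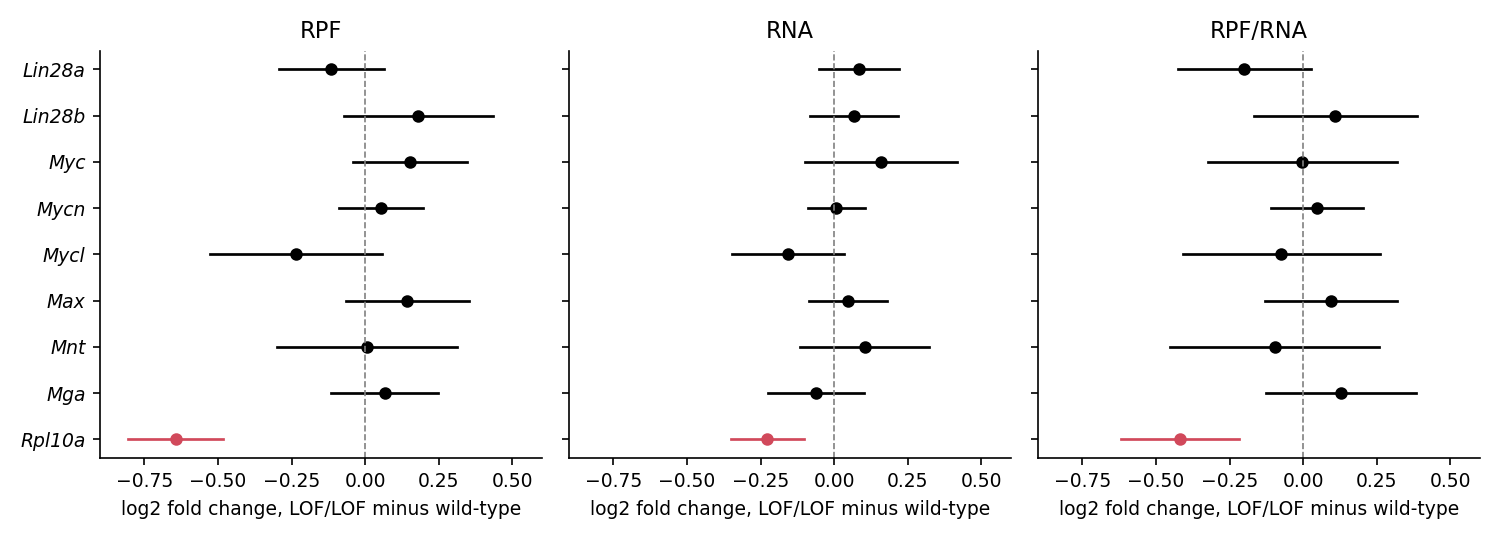
Log2 fold changes, Rpl10a LOF/LOF minus wild-type, from edgeR for RPF, RNA and RPF/RNA, with 95% intervals as lines (3 embryos a group). The intervals of the 8 genes in black all cover 0, and Rpl10a in red lies below 0 in each panel.

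Neither Lin28a nor Lin28b passed the test in RPF, and their log2 fold changes had opposite signs. Lin28a had 267.2, 272.9 and 293.4 RPF CPM in wild-type and 253.2, 285.2 and 231.7 in Rpl10a LOF/LOF embryos, and Lin28b had 23.9, 26.0 and 27.1 against 31.5, 31.1 and 25.0. Both overlapped between genotypes. The log2 fold change was -0.11 (-0.29 to 0.06, edgeR FDR = 0.58) for Lin28a and 0.18 (-0.07 to 0.43, FDR = 0.54) for Lin28b. With the Y-linked counts as a covariate both were above 0, at 0.04 (-0.15 to 0.24, edgeR FDR = 0.94) for Lin28a and 0.33 (0.03 to 0.64, FDR = 0.62) for Lin28b. Without Rpl10a LOF/LOF embryo 2, Lin28a was -0.20 (-0.35 to -0.04, edgeR FDR = 0.12) and Lin28b 0.12, and without Rpl10a LOF/LOF embryo 3 they were -0.04 and 0.29 (0.04 to 0.53, edgeR FDR = 0.40).

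In RNA, Lin28a had 1228, 1241 and 1227 CPM in wild-type and 1409, 1312 and 1198 CPM in Rpl10a LOF/LOF embryos, a log2 fold change of 0.08 (-0.05 to 0.22). For Lin28b these were 334.6, 335.8 and 342.2 against 392.4, 344.6 and 323.3 CPM, a log2 fold change of 0.07 (-0.08 to 0.22). The wild-type embryos lay close together and the Rpl10a LOF/LOF embryos reached to both sides of them, with embryo 1 above and embryo 3 below for both genes. Without Rpl10a LOF/LOF embryo 1 the log2 fold changes were 0.02 for Lin28a and -0.02 for Lin28b, and without Rpl10a LOF/LOF embryo 3 they were 0.14 and 0.13 (edgeR FDR = 0.21 and 0.36).

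RPF/RNA of Lin28a was the only member value whose groups did not overlap: 0 of 8 genes were apart in RPF and 0 of 8 in RNA, where 19.4% and 22.8% of all tested transcripts were, and 1 of 8 in RPF/RNA, where 12.1% were. Lin28a had 0.80, 0.80 and 0.88 times the median in wild-type and 0.65, 0.80 and 0.70 in Rpl10a LOF/LOF embryos, and Rpl10a LOF/LOF embryo 2 reached 0.798 against the lowest wild-type value of 0.799. The log2 fold change was -0.20 (-0.43 to 0.03, edgeR FDR = 1). With the embryo as a block it was -0.20 (-0.38 to -0.02, edgeR FDR = 0.70), and without Rpl10a LOF/LOF embryo 2 it was -0.28 (-0.50 to -0.06, edgeR FDR = 0.35), both with an interval below 0 and short of FDR < 0.1. With the Y-linked counts as a covariate it was -0.08 (-0.35 to 0.19).

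Ratios of counts within a library do not depend on how libraries are scaled. The ratio of Lin28b to Lin28a RPF counts was 0.0896, 0.0952 and 0.0924 in wild-type embryos and 0.124, 0.109 and 0.108 in Rpl10a LOF/LOF embryos. Every Rpl10a LOF/LOF embryo lay above every wild-type embryo, by 0.30 on the log2 scale (exact p = 0.1 by a two-sided permutation test, which 3 embryos against 3 cannot go below, adjusted p = 0.8 over 8 ratios). Among the 4 embryos with high Y-linked counts, where Rpl10a LOF/LOF embryo 2 stood alone against the 3 wild-type embryos, the difference was 0.24. In RNA the same ratio was 0.273, 0.271 and 0.279 against 0.279, 0.263 and 0.270, and the groups overlapped. The other ratios overlapped between genotypes in RPF and RNA. Mycn to Myc had 1.70 to 1.95 in wild-type and 1.62 to 1.83 in Rpl10a LOF/LOF RPF libraries, and Myc to Max 1.98 to 2.43 against 2.04 to 2.38.

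**Figure D4:**
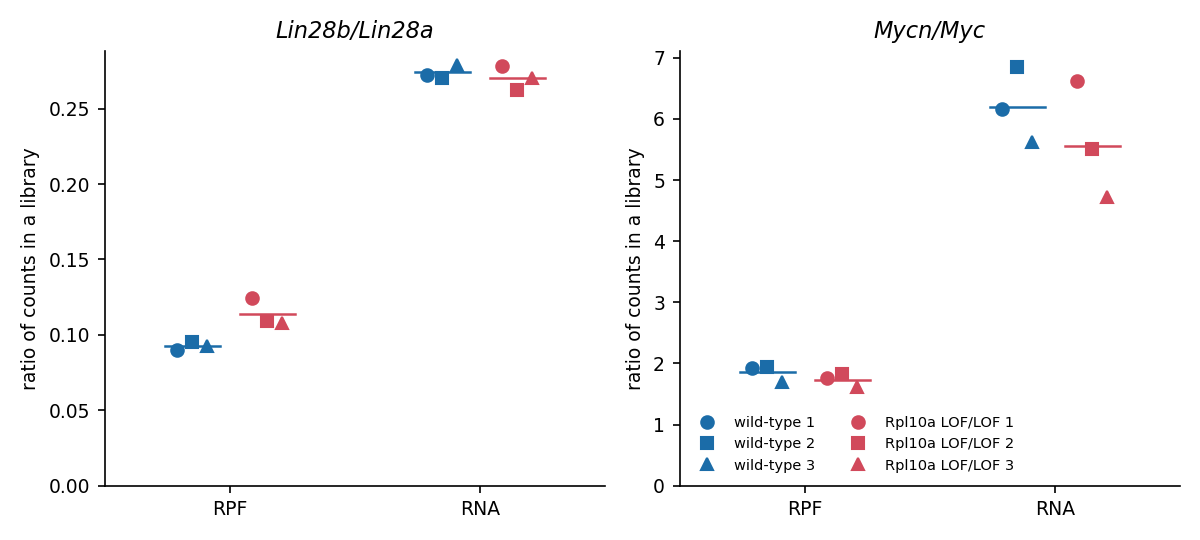
Ratios of counts within a library, Lin28b to Lin28a (left) and Mycn to Myc (right), in RPF and RNA libraries, with a point per embryo and bars at the geometric mean of 3. The Lin28b to Lin28a RPF ratio is 0.108 or more in the Rpl10a LOF/LOF embryos and 0.0952 or less in the wild-type embryos, while its RNA ratio and both Mycn to Myc ratios overlap.

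The other genes of the pathways were taken from 6 hand-written lists, and counts of calls and medians are given without a test of the list. The lists were chosen with earlier results of these data known, so their shares of calls are not independent of these data. In each list the 2 genes of highest mean RPF CPM are named, a value not divided by length, so it favours long CDSs and is no order of levels per kb. The 8 partners of the MYC and MAX network had no call in RPF or RNA, where 2.19% and 5.02% of all tested transcripts were called. Their median log2 fold change was -0.10 in RPF and -0.16 in RNA against 0.00 and -0.00 over all tested transcripts, with 5 and 6 of the 8 below 0, and 1 and 3 of the 8 had an unadjusted p under 0.05 in edgeR's test, where 1727 and 2143 of the 12576 tested transcripts did. The RPF median was -0.01 without Rpl10a LOF/LOF embryo 1, -0.185 without Rpl10a LOF/LOF embryo 2 and -0.05 with the Y-linked covariate, and the RNA median was -0.06 where CPM above 2 was asked. Mlxip, a sensor of glucose metabolites, and its partner Mlx had the highest RPF CPM, with log2 fold changes in RPF of -0.10 (edgeR FDR = 0.84) and 0.18 (FDR = 0.48). The 12 PRC1.6 subunits, the complex MGA belongs to, had no call either, and their RPF median was 0.01. Cbx3 and Cbx1, heterochromatin proteins and the highest in RPF CPM, had RPF log2 fold changes of 0.04 (FDR = 0.85) and -0.15 (FDR = 0.47).

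Of 15 cofactors and turnover factors of MYC, 0 were called in RPF and 1 was lower in RNA, where 3.25% of all tested transcripts were lower, and the median RNA log2 fold change was 0.08 against -0.00, but 0.01 with the Y-linked covariate. This was Usp28, a deubiquitinase that keeps MYC from degradation, with 71.8, 74.0 and 65.0 RNA CPM in wild-type and 61.8, 59.0 and 57.4 CPM in Rpl10a LOF/LOF embryos, a log2 fold change of -0.24 (edgeR FDR = 0.0816). The call was lost in 5 of the 6 fits without 1 embryo and in 7 of the 14 alternatives in all, over which the log2 fold change ran from -0.295 to -0.19. The ubiquitin ligase Huwe1 and the acetyltransferase scaffold Trrap, with the highest undivided RPF CPM, had RPF log2 fold changes of 0.10 (FDR = 0.68) and -0.07 (FDR = 0.71).

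The 28 MYC targets in growth, a list chosen with earlier results of these data known, held most of the calls. In RNA 6 rose and 1 fell, where 1.77% and 3.25% of all tested transcripts did, 23 of the 28 had a log2 fold change above 0, and the median was 0.11 against -0.00 over all tested transcripts. In RPF 2 rose and 0 fell, where 1.05% and 1.15% did, and the median was 0.09 against 0.00, or 0.05 without Rpl10a LOF/LOF embryo 1. None was called in RPF/RNA. In RNA 1 to 5 rose without 1 embryo in turn. Without wild-type embryo 1, and also with the Y-linked covariate, 1 rose, where 52 and 22 of all tested transcripts did. The list medians in these fits were 0.098 and 0.097. In RPF 12 rose and 2 fell by limma-voom with sva, where 616 and 636 of the 12576 transcripts did, 6 rose and 1 fell without Rpl10a LOF/LOF embryo 2, where 637 and 812 did, and 1 rose without any 1 of the wild-type embryos or Rpl10a LOF/LOF embryo 3. The visceral endoderm and erythroid marker sums given above were apart between the genotypes in the RPF libraries. In RNA the visceral endoderm sums were apart too (3160 to 3955 CPM in wild-type, 914 to 2212 in Rpl10a LOF/LOF embryos). The erythroid RNA sums overlapped (395 to 1650 against 1469 to 2447 CPM). The part of these tissues in the calls was not tested.

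Cdkn1a had the largest change of the list. It encodes the cell cycle inhibitor p21, a target of p53 that MYC represses, unlike the activated targets that make up the rest of the list. Its RNA had 3.16, 2.80 and 2.51 CPM in wild-type and 8.93, 7.86 and 8.68 CPM in Rpl10a LOF/LOF embryos, a log2 fold change of 1.61 ± 0.14 (SE, edgeR FDR = 7.4e-04). Its RPF had 8.501, 6.09 and 7.71 CPM against 32.8, 22.0 and 23.7 CPM, a log2 fold change of 1.79 ± 0.18 (SE, FDR = 0.0024). The groups were far apart in both, RPF/RNA differed by 0.18 (FDR = 1), and Cdkn1a was called in RPF and RNA under every alternative, at log2 fold changes of 1.605 to 1.91 in RPF.

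Nolc1, a nucleolar chaperone of ribosome assembly, rose in RPF, with between 391.7 and 399.1 CPM in wild-type and between 457.0 and 497.9 CPM in Rpl10a LOF/LOF embryos, a log2 fold change of 0.29 ± 0.06 (SE, edgeR FDR = 0.0600). The call was lost under 6 alternatives, and over all alternatives the log2 fold change ran from 0.22 to 0.32. In RNA, Cad, the enzyme that starts pyrimidine synthesis, rose from a range of 502.9 to 562.7 CPM to one of 622.2 to 649.6 CPM, a log2 fold change of 0.26 ± 0.05 (SE, FDR = 0.0397). Mybbp1a, a nucleolar MYB-binding protein, rose from a range of 587.6 to 617.2 CPM to one of 691.8 to 718.0 CPM, by 0.24 ± 0.05 (SE, FDR = 0.0292). Each of these groups was apart in all 6 embryos, and the RNA calls of Cad and Mybbp1a were each lost with the Y-linked covariate and without wild-type embryo 1, where the log2 fold changes were 0.24 and 0.25 for Cad and 0.25 and 0.23 for Mybbp1a. Pa2g4, Rrs1 and Ddx18, the other genes called higher in RNA, are named after their values were seen. Their log2 fold changes were 0.21, 0.18 and 0.17 (edgeR FDR = 0.0410, 0.0908 and 0.0842). None of them was called with the Y-linked covariate. Rrs1 was called in no fit without 1 embryo, and Ddx18 only in that without Rpl10a LOF/LOF embryo 3. Pa2g4 was called in all of these fits but those without wild-type embryo 1 or Rpl10a LOF/LOF embryo 1. Shmt1, an enzyme of folate metabolism, fell in RNA from a range of 103.6 to 111.0 CPM to one of 90.5 to 95.3 CPM, a log2 fold change of -0.21 ± 0.05 (SE, FDR = 0.0530). This call was lost under 6 of 14 alternatives, among them the Y-linked covariate and the fits without wild-type embryo 1, wild-type embryo 3 or Rpl10a LOF/LOF embryo 3. The log2 fold change of Shmt1 RNA ran from -0.24 to -0.17 over the alternatives. The genes of highest RPF CPM, the nucleolar proteins Npm1 and Ncl, had RPF log2 fold changes of 0.14 (FDR = 0.49) and 0.14 (FDR = 0.43).

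The promoter of Mybbp1a carries an E-box, 40 bases after the start site (chr11:72441355-72441376, plus strand, GRCm38.p6), and it is shown because Mybbp1a was called. The promoters of Cdkn1a, Cad, Nolc1 and Shmt1 gave no window with CACGTG, which says nothing of binding elsewhere:
Mybbp1a promoter: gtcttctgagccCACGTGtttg

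Of 19 genes for LIN28 partners and let-7 processing, 18 were tested, and Ago4 was not. None was called in RPF or RNA, where 2.19% and 5.02% of all tested transcripts were. The RPF/RNA log2 fold change was below 0 in 13 of the 18, with a median of -0.10 against 0.01 over all tested transcripts, and 0 passed the test. The median was -0.03 with the Y-linked covariate and -0.05 without Rpl10a LOF/LOF embryo 1. Ran, which carries pre-microRNAs out of the nucleus with exportin 5, and Khsrp, which binds the let-7 loop, had the highest RPF CPM, with RPF log2 fold changes of 0.03 (edgeR FDR = 0.92) and 0.08 (FDR = 0.66).

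Of 28 let-7 target mRNAs, 26 were tested, without Hmga1 and Acvr1c. The list was written from known let-7 targets, and CTACCTC stood in 20 of the 26 3'UTRs (76.9%, against 20.6% of the 3321 tested 3'UTRs of 2000 nt or more). In RPF 0 were called, and in RNA 2 rose and 0 fell, where 1.77% and 3.25% of all tested transcripts did. By limma-voom with sva 1 rose and 3 fell in RPF, where 616 and 636 of the 12576 transcripts did. Without Rpl10a LOF/LOF embryo 2 again 1 rose and 3 fell in RPF, where 637 and 812 did. With the Y-linked covariate 1 rose in RPF, where 18 did. The median RNA log2 fold change was 0.01 against -0.00. RPF/RNA was below 0 in 19 of 26, with a median log2 fold change of -0.08 against 0.01, and 0 passed the test. Without Rpl10a LOF/LOF embryo 1 the median was -0.04, and with the Y-linked covariate -0.03.

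Cdc34, a ubiquitin-conjugating enzyme of the cell cycle, rose in RNA from 43.1, 45.5 and 50.8 CPM in wild-type to 59.9, 57.5 and 57.4 CPM in Rpl10a LOF/LOF embryos, by 0.32 ± 0.07 on the log2 scale (SE, edgeR FDR = 0.0410). Its RPF groups overlapped, with 11.7 to 12.9 against 11.9 to 18.04 CPM. Plagl2, a zinc finger transcription factor, rose in RNA from 106.6, 115.4 and 95.7 to 141.0, 124.2 and 122.1 CPM, by 0.29 ± 0.08 (SE, FDR = 0.0842). Its RPF level was 18.7 to 19.1 CPM in wild-type and 14.3 to 17.9 CPM in Rpl10a LOF/LOF embryos, a log2 fold change of -0.21 (FDR = 0.47). The RNA call of Cdc34 was lost under 4 alternatives and that of Plagl2 under 5, each time with the Y-linked covariate, without wild-type embryo 1 and without Rpl10a LOF/LOF embryo 1 among them. Over all alternatives the RNA log2 fold changes ran from 0.28 to 0.39 for Cdc34 and from 0.22 to 0.37 for Plagl2. Each has 1 seed match, in capitals below, at base 68 of a 339-nt 3'UTR in Cdc34 and at base 1584 of 3730 nt in Plagl2:
Cdc34 site: gcctcaggcgacagaCTACCTCac
Plagl2 site: ttcagaaacacacttCTACCTCtt

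The let-7 targets of highest RPF CPM were the RNA-binding proteins Igf2bp1 and Igf2bp3, with 4 matches and 1 match. Igf2bp1 had 903.3, 932.0 and 933.0 RPF CPM in wild-type and 933.0, 931.4 and 869.7 CPM in Rpl10a LOF/LOF embryos, a log2 fold change of -0.02 (edgeR FDR = 0.93). Igf2bp3 had 438.6 to 456.9 against 409.6 to 461.6 CPM, a log2 fold change of -0.05 (FDR = 0.81).

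**Figure D5:**
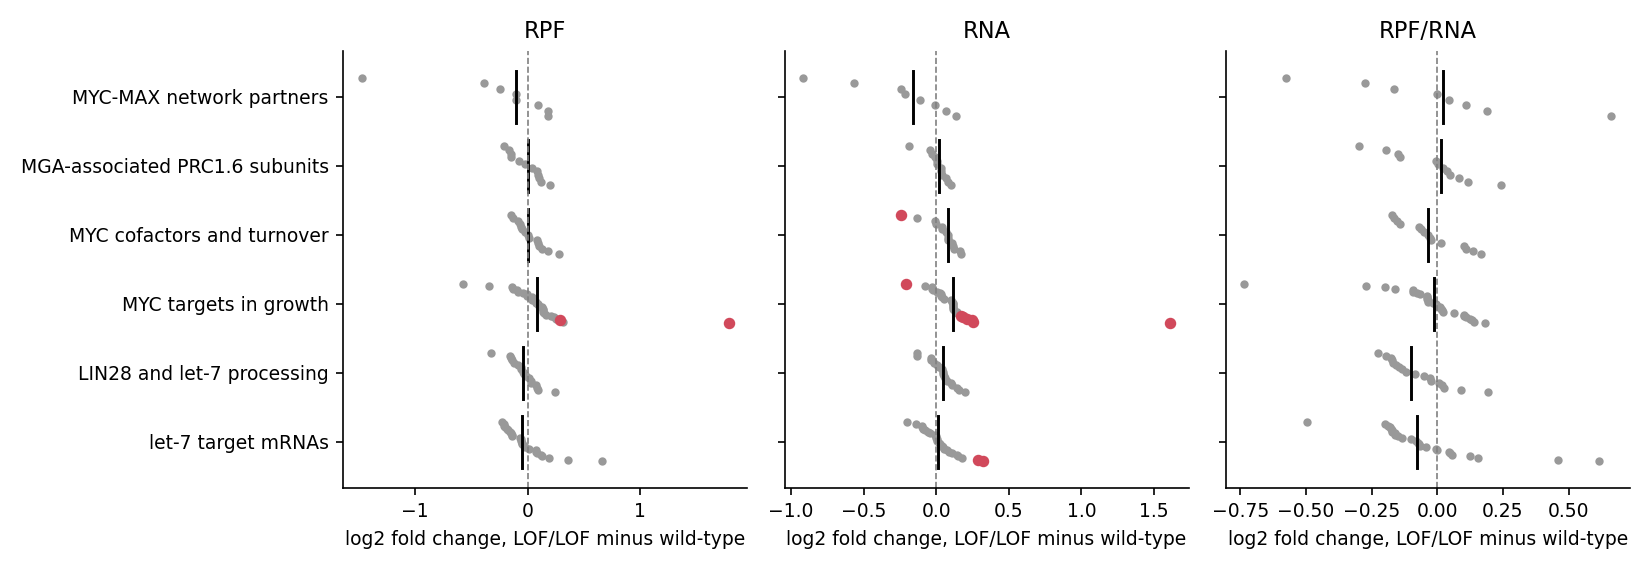
Log2 fold changes, Rpl10a LOF/LOF minus wild-type, of the genes of 6 lists in RPF, RNA and RPF/RNA (grey points, sorted within a list; red, FDR < 0.1 by edgeR; black bars, list medians). Most red points are MYC targets in RNA, Cdkn1a lies farthest to the right in RPF and RNA, and RPF/RNA has no red point.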

How the data were processed

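Ribosome profiling and RNA-seq of 6 single E8.5 embryos (3 wild-type, 3 Rpl10a LOF/LOF) gave 12 libraries, grouped by label. The authors trimmed reads with cutadapt, removed reads from rRNA, tRNA and snRNA with Bowtie2, aligned the rest to canonical transcripts of GRCm38/mm10, and used UMI-tools to drop PCR duplicates. The deposited values are raw counts per transcript: RPF reads with the A site in the CDS, without its first 15 and last 5 codons, and RNA reads on the whole transcript.

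Following the study's filter and threshold, transcripts with CPM above 0.75 in at least 3 RPF libraries were kept, RPF and RNA libraries were normalized separately by TMM, and FDR < 0.1 was called. Since the study gives no design for its voom, limma, sva and locfdr steps, edgeR 4.0.16 (quasi-likelihood test, R 4.3.3) with genotype alone was used, and for RPF/RNA the interaction of genotype and library over 12 libraries. Benjamini-Hochberg adjustment ran over all 12576 transcripts. Intervals are at 95% and unadjusted. Alternatives were DESeq2 1.42.0, limma-voom (limma 3.58.1) with and without sva 3.50.0, RLE size factors, no filter, CPM above 2, the replicate number or the embryo as a block, a covariate from 4 Y-linked genes, and each embryo left out. The steps were tested on simulated data. locfdr was not run.

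Annotation came from GENCODE vM21, which matched 21976 identifiers with their version and 477 in another version. Genes named are the 8 members, Rpl10a, the 2 of highest mean RPF CPM in each list and up to 3 per direction among those called in each contrast, plus the 2 transcripts nearest in pattern to Myc, Mycn, Lin28a and Lin28b. The members and lists were chosen with earlier results of these data known. The labels pair each RPF with an RNA library of 1 embryo (correlation of deviations 0.191 to 0.403). Replicate numbers are shared by different embryos only as numbers.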

Additional observations from a re-analysis of the deposited data

How the results depend on the processing

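Counts of the 8 genes called stayed at 0 in RPF and RPF/RNA under all alternatives, and in RNA the count ran from 0 to 1 without 1 embryo in turn. Of 103 genes of the 6 lists, those called numbered 2 in RPF (276 of all tested transcripts), 19 by limma-voom with sva (1252) and 1 to 15 without 1 embryo (15 without Rpl10a LOF/LOF embryo 2, 1449 of all), 10 in RNA (631 of all), 1 with the Y-linked covariate (35) and 1 to 9 without 1 embryo (1 without wild-type embryo 1, 138 of all), and 0 in RPF/RNA, 0 to 1 without 1 embryo (Odc1, without Rpl10a LOF/LOF embryo 2). Paralogue comparisons with an adjusted exact p under 0.05 went from 11 to 0 without any 1 embryo, by construction, since 5 embryos cannot give an exact p under 0.0625. The replicate block, a number that different embryos share (correlation of deviations -0.10 to 0.08), called 0 of the 8 genes and 2 list genes in RPF and 7 in RNA, and moved Mnt RPF to -0.00138. The replicate block by embryo for RPF/RNA called 0.

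Log2 fold changes near 0 turned sign. With the Y-linked covariate they were, in RPF, -0.0594 for Mga, 0.0435 for Lin28a, -0.0432 for Huwe1, 0.0319 for Igf2bp1 and 0.176 for Mlxip, in RNA -0.0237 for Mycn, and in RPF/RNA 0.0137 for Mycl, -0.00799 for Max, -0.0519 for Mga and 0.0277 for Mnt. RPF/RNA was 0.0117 for Myc by limma-voom and 0.00822 for Mycl with sva. Without 1 embryo the ranges were, in RPF, -0.0735 to 0.0851 for Mnt, -0.0172 to 0.0992 for Cbx3, -0.0423 to 0.304 for Cdc34, -0.0177 to 0.209 for Huwe1, -0.0378 to 0.0147 for Igf2bp1, -0.304 to 0.00932 for Mlxip and -0.0241 to 0.0941 for Ran, in RNA -0.0151 to 0.0276 for Mycn and -0.0169 to 0.126 for Lin28b, and in RPF/RNA -0.120 to 0.0560 for Myc and -0.152 to 0.0602 for Mycl. The differences of log2 ratios ran from -0.301 to 0.0153 for Mnt to Max in RPF (0.1502 in embryos with high Y-linked counts) and -0.0644 to 0.189 in RNA, -0.0677 to 0.0819 for Myc to Max in RPF and -0.0246 to 0.237 in RNA, and -0.0411 to 0.00127 for Lin28b to Lin28a in RNA. Mycl minus Myc in RNA was 0.886 without length scaling. The causes were not tested, apart from length scaling. Mnt and Mycl, with the fewest RPF counts, had the widest RPF intervals.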

Other observations

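The transcripts whose levels followed each gene most closely were sought over the 12 libraries, as the Pearson correlation of log2(CPM + 1) centred within RPF and within RNA libraries, among 8103 transcripts with a mean of at least 10 RPF CPM. With so many transcripts and few libraries, which share embryos, high values are found for any gene, and these are a description. Tubb6 (r = 0.92) and Prcp (r = 0.90) were nearest to Myc, Mef2c (0.93) and Med23 (0.91) to Mycn, Rab18 (0.91) and Grsf1 (0.91) to Lin28a, and Thoc3 (0.91) and Klk8 (0.90) to Lin28b.

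Over all tested transcripts with a 3'UTR, the median RPF/RNA log2 fold change was 0.008 for 11213 transcripts with no CTACCTC, -0.004 for 1065 with 1 and -0.03 for 152 with 2 or more. The medians in RNA were -0.002, -0.006 and 0.005. These were not tested against each other.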
